A study of Mus musculus with 58 samples.

Results

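The clustered protocadherins were read in single parvalbumin (PV) cells, which are fast-spiking inhibitory neurons, of the mouse ventral subiculum. The members were all genes of the deposited count table whose symbol begins with Pcdha, Pcdhb or Pcdhg, which gave 24 of 25648 genes. They were 22 beta protocadherin genes, Pcdhb1 to Pcdhb22, and 1 row each named Pcdha and Pcdhg, in which the alpha and gamma isoforms were not told apart. Single alpha and gamma isoforms, including the 5 C-type isoforms, were therefore not analysed here. The sources used here do not say which exons feed the merged rows.

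All cells came from PV-Cre::Ai9 mice, in which Cre is driven by the parvalbumin gene and switches on the red Ai9 reporter, so all pools compared here carry both alleles. The cytosol of each cell was drawn up through a patch pipette, and a Nextera XT library was made from it. The study drew on 4 male and 3 female animals, but the labels do not tie a cell to its animal. The cells labelled Pass in quality control were therefore grouped by sex and age into 4 pools, with 14 male cells of age P35, 13 male cells of age P36, 17 female cells of age P40 and 10 female cells of age P42, and 4 cells labelled Fail were left out. Sex and age cannot be told apart in this design, and a pool may hold cells of 1 or several animals.

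Clustered protocadherins are cell surface adhesion proteins that bind the same isoform on a facing membrane, and through it let a neuron tell its own branches from those of other neurons. In the alpha and gamma clusters, each variable exon has its own promoter and is spliced to constant exons shared by the cluster, while each beta gene is a single coding exon. Most promoters are chosen at random in each cell, under the control of the insulator protein CTCF, cohesin and DNA methylation, whereas the C-type isoforms are used more evenly. In cortical interneurons the gamma cluster is known for its part in cell survival.

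The 54 Pass cells held 2054581 to 52347304 counts each, with a median of 11501534, and the 4 pools held 122795296 to 229273004 counts. The 9 markers of PV interneurons, Pvalb, Gad1, Gad2, Slc32a1, Lhx6, Tac1, Kcnc1, Kcnc2 and Erbb4, each had a count in all 54 cells, and their summed level ran from 2389 to 9986 CPM (counts scaled to the cell's own total, per 1e6). Pvalb itself ran from 1.18 to 788 CPM, with a median of 86.9 CPM, and reached 10 CPM in 47 cells. Markers of other cell types were also read, as summed levels at the median cell. Astrocyte markers stood at 686 CPM, oligodendrocyte markers at 483 CPM and those of other interneurons at 299 CPM. Microglial markers stood at 142 CPM and those of excitatory neurons at 116 CPM. Blood and oligodendrocyte precursor markers stood at 77.2 and 19.5 CPM. The 6 endothelial and mural markers were all at a median of 0 CPM. Single genes led several of these sums: the median was 667 CPM for Aldoc, 283 for Mbp, 148 for Cck and 93.3 for Camk2a. Of the other astrocyte markers, Slc1a3 had a median of 16.5 CPM, and Aqp4, Gfap, Aldh1l1 and Gja1 each lay under 1 CPM. In 40 of the 54 cells, Pvalb lay above Sst and Gad1 above Slc17a7. In the female P40 pool, cell 3 held 22.8% of all counts.

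The 3 clusters lie in a row on the plus strand of chromosome 18 (GRCm38, GENCODE vM21), with alpha at 36930184 to 37187661, beta at 37264938 to 37524479 and gamma at 37661793 to 37841873. The annotation lists 13 alpha, 22 beta and 22 gamma genes there. The beta genes resemble each other: the share of a beta transcript's 50-base stretches that also occur in another gene of the clusters ran from 0 to 11.99%, with a median of 4.26%. It was highest in Pcdhb12 at 11.99% and Pcdhb21 at 11.3%. The sources used here do not say how reads that match several genes were counted. Pcdhb21 (37513621 to 37518325) overlaps Pcdhb22 (37517871 to 37524479) on the same strand, so their shared stretches include the bases that both genes cover. The split of reads between these 2 genes is therefore also uncertain.

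Most PV cells held a small set of beta genes at a level of 10 CPM or more. At this level, a cell held a median of 2 of the 22 beta isoforms, with a mean of 2.39 ± 1.57 (SD, n = 54 cells) and a range of 0 to 6. No beta isoform reached that level in 7 cells, 1 did in 9 cells, 2 in 14, 3 in 11, 4 in 8, 5 in 3 and 6 in 2. The most frequent number was thus 2, and the 7 cells without any were 12.96% of the cells (exact 95% interval 5.37 to 24.9%). This interval covers counting error only.

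**Figure D1:**
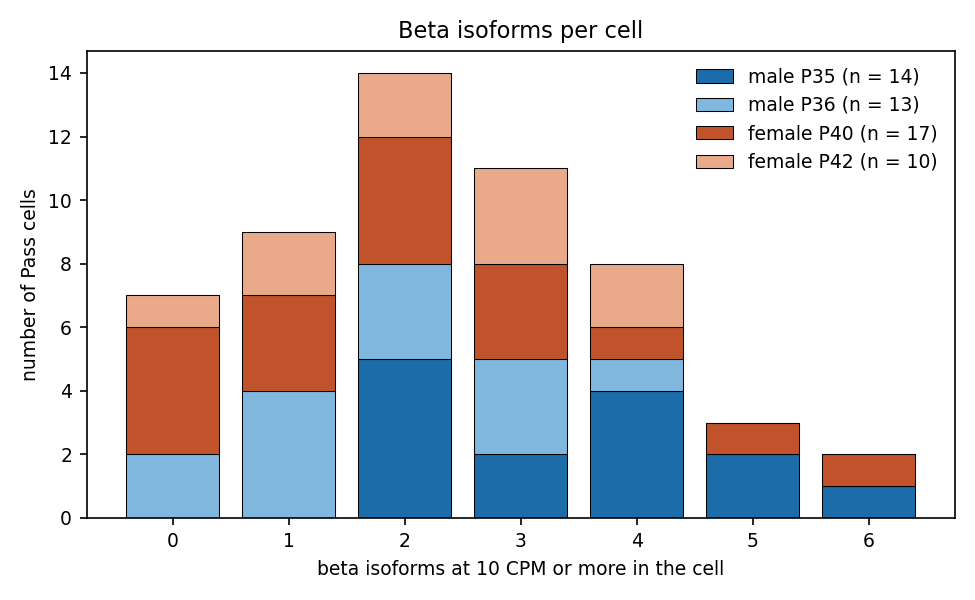
Number of Pass cells (vertical axis) that held 0 to 6 beta protocadherin isoforms at 10 CPM or more (horizontal axis), with bars stacked by pool. The tallest bar stands at 2 isoforms with 14 cells, and no male P35 cell lies below 2.

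The number of isoforms depends on where the line is drawn. At 1 CPM or more the median was 4.5 isoforms (range 0 to 11), and isoforms with at least 1 count had a median of 14 (range 4 to 20). The levels themselves were spread widely. Of the 1188 beta values (22 genes in 54 cells), 448 were 0 (37.7%), 486 were above 0 but under 1 CPM (40.9%), 125 lay from 1 to under 10 CPM (10.5%) and 129 reached 10 CPM (10.9%). Most beta counts came from those few high values: the 129 values at 10 CPM or more held 89.3% of all beta counts, and the 486 low ones held 2.37%. The high values had a median of 30.3 CPM (quartiles 18.6 and 45.8) and a highest value of 191 CPM. Near the line there was no gap, with 36 values from 5 to under 10 CPM and 38 from 10 to under 20 CPM.

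**Figure D2:**
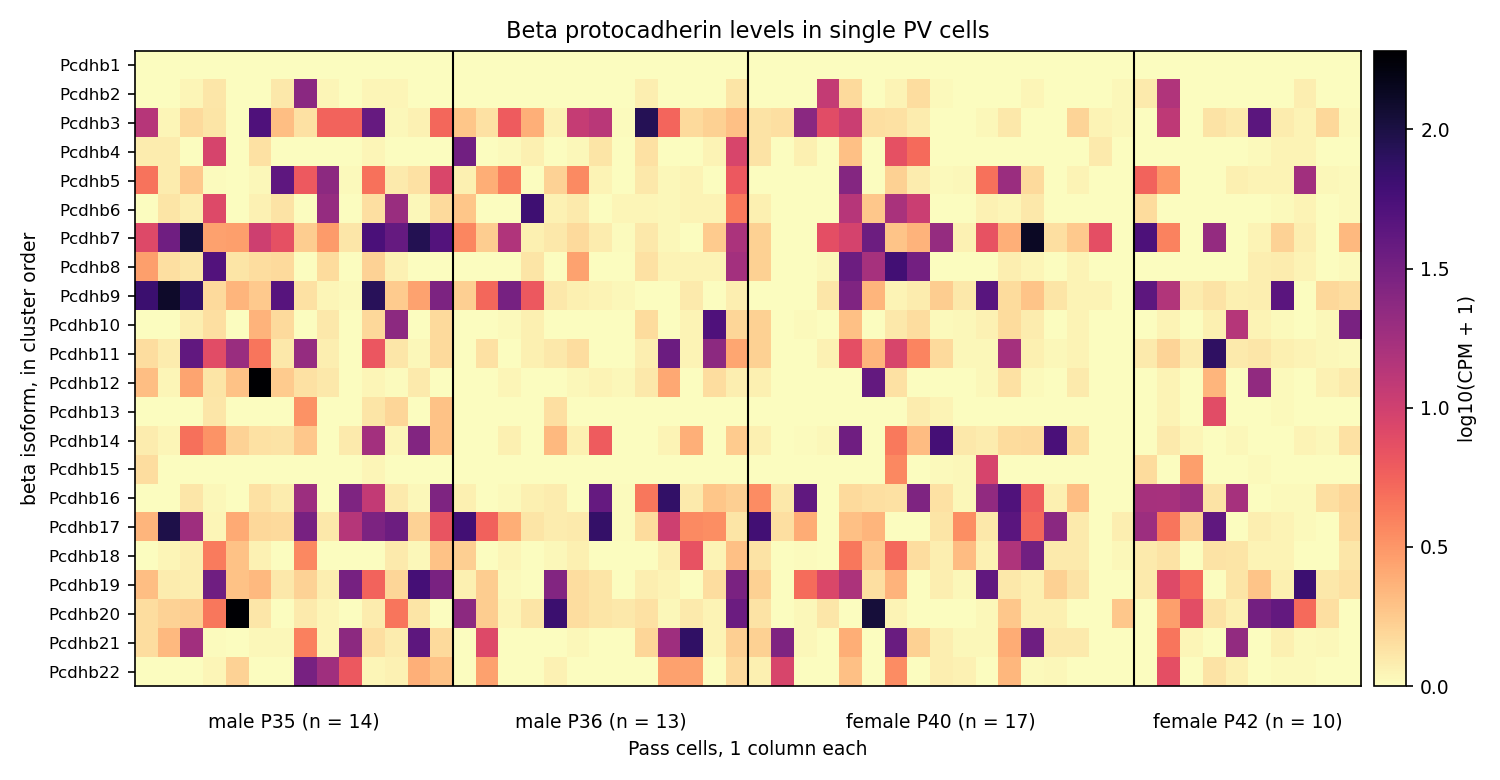
Level of each beta protocadherin (rows, in their order along chromosome 18) in each Pass cell (columns, grouped by pool), as log10(CPM + 1). Dark squares are scattered over rows and columns, most squares are pale, and the Pcdhb1 row is at 0 throughout.

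Within a cell, 1 or 2 isoforms usually supplied most of the beta signal. The highest isoform held a median of 50.4% of the cell's beta counts (range 18.5 to 93.1%), and the 2 highest together held a median of 75.6% (range 35.2 to 97.3%). The 93.1% was in female P40 cell 16, whose highest isoform stood at 6.38 CPM. In the 47 cells with a beta isoform at 10 CPM or more, the highest isoform held a median of 50.9% (range 18.5 to 92.0%). A single isoform dominated, for example, in male P35 cell 6, where Pcdhb12 stood at 191 CPM.

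Use was spread over nearly the whole beta cluster. Of the 22 beta genes, 21 had a count in at least 1 cell and 19 reached 10 CPM in at least 1 cell, with a median of 5 cells per gene and at most 14. Pcdhb16, Pcdhb7 and Pcdhb17 were the 3 found in the most cells. The beta genes found in the next most cells were Pcdhb9 with 12 cells, and then Pcdhb3, Pcdhb19 and Pcdhb21 with 9 each.

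**Figure D3:**
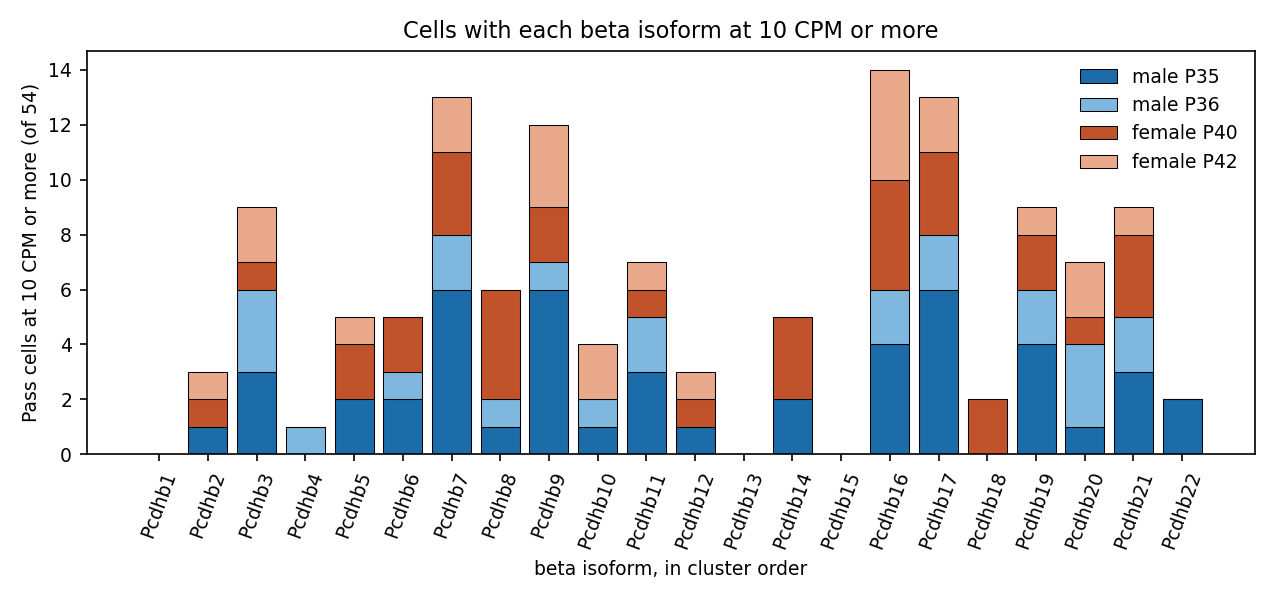
Number of Pass cells (vertical axis, of 54) in which each beta isoform (horizontal axis, in cluster order) reached 10 CPM, stacked by pool. Pcdhb16 leads with 14 cells, and Pcdhb1, Pcdhb13 and Pcdhb15 have none.

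Pcdhb16 (37477814 to 37483038) reached 10 CPM in 14 of 54 cells (25.9%, exact 95% interval 14.96 to 39.7%), 6 of them from males (4 of age P35, 2 of age P36) and 8 from females (4 of each age). Its lowest, median and highest levels were 0, 0.229 and 27.0 CPM in the P35 males and 0, 0.208 and 72.9 CPM in the P36 males. They were 0, 0.415 and 49.7 CPM in the P40 females and 0, 0.471 and 17.8 CPM in the P42 females. All 4 pools overlapped, and in each the median cell lay under 1 CPM while a few cells stood far above it.

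Pcdhb7 (37341702 to 37345202) reached 10 CPM in 13 cells (24.1%, exact 95% interval 13.5 to 37.6%), of which 6 were male P35. Its level ran from 0.287 to 105 CPM (median 8.24) in P35 males and from 0 to 14.7 CPM (median 0.278) in P36 males. It ran from 0 to 134 CPM (median 1.29) in P40 females and from 0 to 51.9 CPM (median 0.395) in P42 females. The highest single value, 134 CPM, was in female P40 cell 13, and the pools overlapped.

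Pcdhb17 (37484795 to 37489454), which also reached 10 CPM in 13 cells, stood at 0.107, 3.67 and 95.4 CPM (lowest, median and highest) in the P35 males and at 0.0346, 1.46 and 70.8 CPM in the P36 males. In the P40 females it stood at 0, 0.402 and 60.1 CPM, and in the P42 females at 0, 0.333 and 40.8 CPM. Both female medians were below both male medians, and the ranges overlapped widely.

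Pcdhb12 (37435621 to 37438654) held the highest single beta value. It reached 191 CPM in male P35 cell 6, which carried 82.3% of all Pcdhb12 counts, and its next highest cell stood at 38.6 CPM. Only 3 cells held it at 10 CPM or more. Pcdhb20 had a similar peak, at 183 CPM in male P35 cell 5.

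At the other end, Pcdhb1 (37264938 to 37267525), the first gene of the cluster, had 0 counts in all 54 cells, which allows a share of cells with a count of up to 5.56% (3 of 54), with an exact 95% upper limit of 6.60%. These limits concern cells with a count, not cells that express the gene below detection. Pcdhb13 and Pcdhb15 had counts but did not reach 10 CPM in any Pass cell: their highest levels were 6.77 CPM in 1 female P42 cell and 8.17 CPM in 1 female P40 cell. Pcdhb4 reached 10 CPM in 1 cell, and Pcdhb18 and Pcdhb22 in 2 cells each. Set against transcript length, the mean over cells was highest for Pcdhb9 at 3.90 CPM per kilobase, followed by Pcdhb7 at 3.84, Pcdhb20 at 2.66 and Pcdhb17 at 2.32.

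The beta genes had a higher median variation from cell to cell than other genes of their level. The 18 beta genes with a mean of at least 1 CPM (1.15 to 13.5 CPM) had a median coefficient of variation (SD over mean, across 54 cells) of 2.81, and the 4595 other genes in that range of means had 2.13. They reached 10 CPM in a median of 6.5 cells, against 8 cells for those other genes. These are descriptions, and the difference was not tested.

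Most pairs of cells shared no beta isoform at 10 CPM or more. Of the 1431 pairs of Pass cells, 1015 (70.9%) had none in common, 325 had 1, 77 had 2 and 14 had 3 or more. The mean was 0.365. The pairs include those of the 7 cells without any beta isoform at that level, which can share none. The mean is set by the number of cells that held each gene. It is therefore no measure of how genes are combined, and the sharing of other genes of like frequency was not read. The 47 cells with any beta isoform held 45 distinct sets. At 10 CPM, 4 cells shared an identical set with another cell, and in each case the set was 1 isoform: Pcdhb21 alone in male P36 cell 11 and female P40 cell 2, and Pcdhb3 alone in male P36 cells 6 and 9. This number depends on the line: it was 0 of 51 cells with any isoform at 1 CPM and 4 of 49 at 5 CPM. It was 9 of 43 at 20 CPM and 12 of 24 at 50 CPM. Sets of other genes of like frequency were not read. Within pools, the mean number shared per pair was 0.769 and 0.154 in males of age P35 and P36, and 0.213 and 0.311 in females of age P40 and P42. The higher value in male P35 cells goes with their larger number of isoforms, a mean of 3.43 per cell.

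Pairs of isoforms were counted by their distance along the cluster, as a description with no test. The 19 beta genes that reached 10 CPM in some cell gave 171 pairs. Of the 16 neighbouring pairs, 9 (56.2%) occurred together at 10 CPM or more in at least 1 cell. The share was 26 of 55 pairs (47.3%) at 2 to 5 steps and 53 of 100 pairs (53.0%) at more than 5 steps. The mean Jaccard index (cells with both genes over cells with either) was 0.0735, 0.0534 and 0.0678 in the same order. The most frequent pairs were Pcdhb7 with Pcdhb9 (6 of 19 cells with either), Pcdhb7 with Pcdhb17 (6 of 20) and Pcdhb16 with Pcdhb17 (6 of 21).

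The merged alpha and gamma rows do not tell isoforms apart, so they are set beside the beta sum and not beside single beta genes. Pcdha stood at 10 CPM or more in all 54 cells, at a lowest, median and highest level of 33.2, 187 and 446 CPM, with a mean of 197 ± 85.8 CPM (SD, n = 54). Pcdhg reached 10 CPM in 53 of 54 cells, with 4.29, 231 and 639 CPM as lowest, median and highest. The sum of the 22 beta genes ran from 0.657 to 263 CPM, with a median of 93.9 CPM. The coefficient of variation was 0.434 for Pcdha and 0.621 for Pcdhg. The 1225 other genes within 1.5 times of the Pcdha and Pcdhg means (132 to 359 CPM) had a median of 0.411 (range 0.193 to 4.56). The beta sum had 0.683, but its mean of 104 CPM lay below those genes, and it adds up 22 genes.

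The beta sum could be very low while the other clusters were not. The 7 cells with no beta isoform at 10 CPM had Pcdha levels of 81.4 to 446 CPM (median 143) and Pcdhg levels of 127 to 413 CPM (median 302). Their total counts, 2766263 to 28925246 with a median of 15157053, lay within the range of the other cells.

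Low Pcdhg values were found in the female P40 pool. There, cell 2 stood at 4.29 CPM, cell 4 at 10.9 CPM, cell 3 at 22.2 CPM, cell 13 at 31.6 CPM and cell 11 at 50.8 CPM, all below the lowest Pcdhg value of every other pool (72.8 CPM). The same pool also held cells of up to 413 CPM, so that its lowest, median and highest values were 4.29, 130 and 413 CPM. Cell 2 also had the highest summed level of astrocyte markers of all Pass cells, 5020 CPM, against a median of 686 CPM. Aldoc, which led that sum at the median, reached at most 4758 CPM in any Pass cell. The part of those markers in the low value was not tested.

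Levels were also set against annotated transcript length, using the median of the cluster for the merged rows (5341 bases for alpha, 4721.5 for gamma) and each gene's own length for beta (2588 to 8695 bases) before summing. On this scale the median cell had 35.0 CPM per kilobase of Pcdha, 49.0 of Pcdhg and 24.4 of summed beta. Pcdhg exceeded Pcdha per kilobase in 33 of 54 cells, and summed beta exceeded Pcdha in 17 cells and Pcdhg in 13. For Pcdha and Pcdhg the length is that of single annotated isoforms, since the exons behind the merged rows are unknown.

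**Figure D4:**
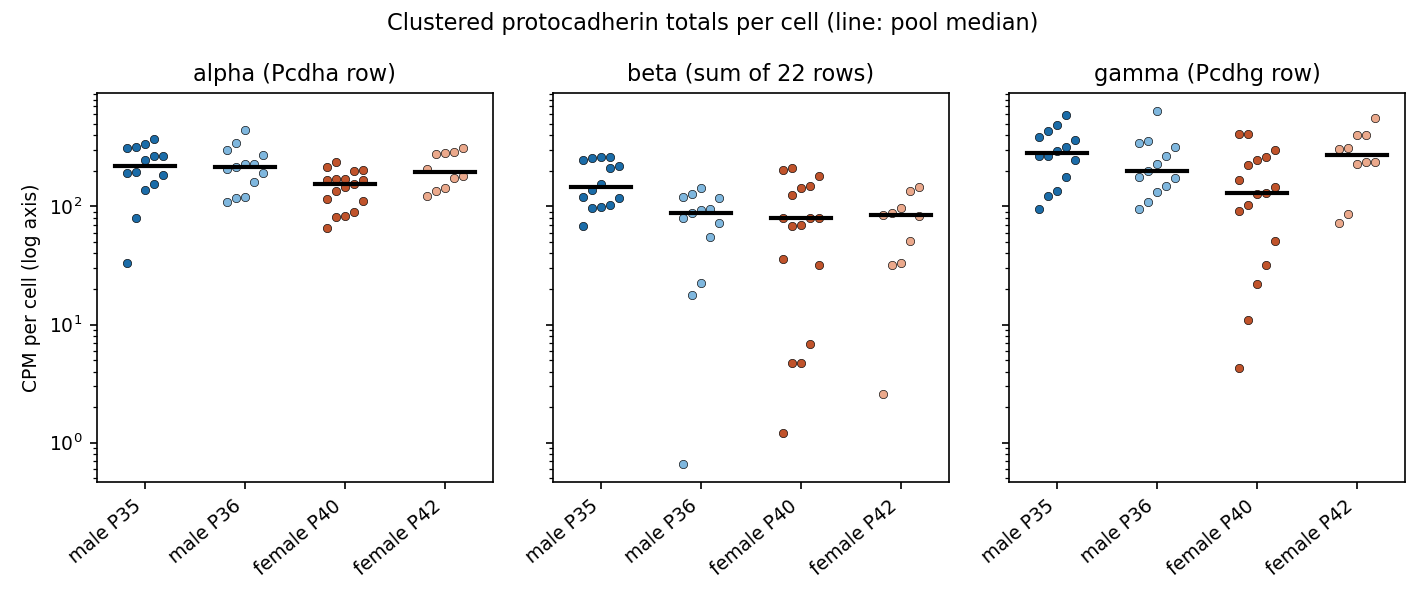
Level of Pcdha, the sum of the 22 beta genes and Pcdhg in each Pass cell (points; vertical log axis, CPM) by pool, with a line at the pool median. All 4 pools overlap in each panel, and the lowest Pcdhg values lie in the female P40 pool.

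Over all Pass cells, the totals of the 3 clusters had little rank order in common. Across the 54 cells, Spearman's rho was 0.084 between Pcdha and Pcdhg, -0.073 between Pcdha and the beta sum, and 0.12 between the beta sum and Pcdhg, as descriptions of values that share each cell's library. In the P35 and P36 males and the P40 and P42 females, rho between Pcdha and Pcdhg was 0.27, -0.071, -0.18 and -0.50. Between Pcdha and the beta sum it was -0.34, -0.071, -0.15 and -0.067 in that order. Between the beta sum and Pcdhg it was 0.059, 0.15, -0.10 and 0.15. The number of beta isoforms at 10 CPM or more had a rho of -0.18 with total counts (n = 54) and of 0.065 with the number of genes with a count. Within pools, the rho with total counts was -0.17 (P35, n = 14) and 0.18 (P36, n = 13) in males and -0.33 (P40, n = 17) and -0.50 (P42, n = 10) in females. Against the labelled cell capacitance and membrane resistance it was 0.042 and -0.15 (n = 49 cells that had a value), with a wide spread between pools. With capacitance the rho was -0.20 (n = 12) and -0.29 (n = 13) in the P35 and P36 males and 0.050 (n = 15) and 0.58 (n = 9) in the P40 and P42 females. With resistance it was -0.12, 0.43, -0.47 and -0.78 in that order.

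Female and male pools were then compared, the contrast in the study's title. The pools' median number of beta isoforms per cell was 3.5 and 2 in the P35 and P36 males and 2 and 2.5 in the P40 and P42 females, and the means were 3.43, 1.77, 2.06 and 2.30. The difference of female minus male was -0.5 for the medians and -0.42 for the means. The groups overlapped, and the exact two-sided permutation test over pools gave p = 1 for both, where the smallest p that 2 pools against 2 allow is 0.333.

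Over all Pass cells, the cluster totals were lower in the mean of the female pools, without separation of the sexes. Pcdha stood at 236 CPM in the P35 and 202 CPM in the P36 males, and at 156 CPM in the P40 and 225 CPM in the P42 females, a log2 difference of -0.22 (exact two-sided permutation p = 0.667). The beta sum stood at 156, 72.9, 77.9 and 66.7 CPM in that order, a log2 difference of -0.57 (exact two-sided permutation p = 0.667). Pcdhg stood at 296, 230, 134 and 282 CPM, a log2 difference of -0.43 (exact two-sided permutation p = 0.667). Male and female pools overlapped in all 3, and male P35 was the highest pool in each. Without the female P40 pool, the differences for Pcdha and Pcdhg turned to 0.0396 and 0.11. The difference of the beta sum was -0.017 without the male P35 pool and -1.12 without the male P36 pool.

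In a fit over all 14933 genes that passed the filter on low counts, 22 of the 24 members were tested, leaving out Pcdhb1 and Pcdhb15. None was called at an adjusted p under 0.05 by the quasi-likelihood test of edgeR (Benjamini-Hochberg adjusted), beside 0.0134% of all genes tested. None had an unadjusted p under 0.05 either, beside 5.51% of all genes, and none was called by DESeq2 or limma, which called 1.25% and 0.0134% of all genes. The estimate lay below 0 in 17 of the 22 members (77.3%), beside 49.5% of all genes, with a median log2 difference of -0.51 over the 22 members, of -0.62 over the 20 beta genes, and of 0.00436 over all genes. Both female pools lay below both male pools for 6 of the 22 (27.3%), namely Pcdhb3, Pcdhb4, Pcdhb6, Pcdhb11, Pcdhb17 and Pcdhb21, beside 17.3% of all genes. Both female pools lay above both male pools for 0 of the 22, beside 16.5% of all genes, so that 6 of 22 had no overlap in either direction, beside 33.9% of all genes.

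The direction of the median changed without 1 pool. The male P35 pool was the highest of the 4 for 14 of the 22 members (63.6%), and for 23.3% of all genes, a count made after the values were seen. Without that pool the median log2 difference of the beta genes was 0.13.

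**Figure D5:**
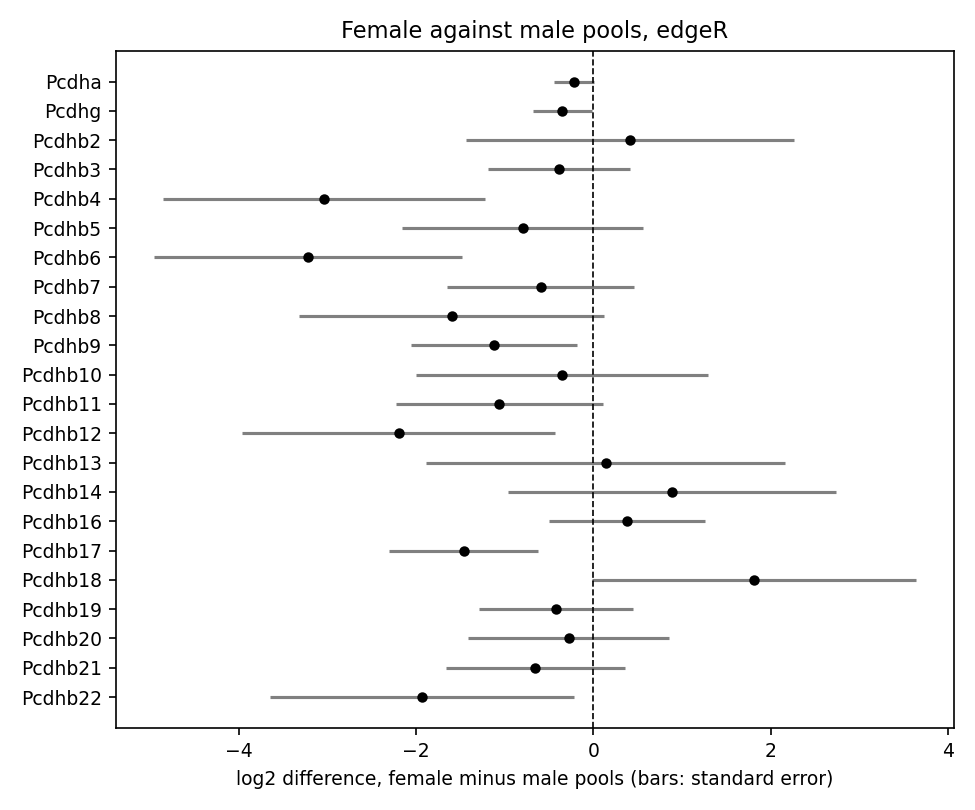
Log2 difference of female minus male pools (horizontal axis) for the 22 members tested (rows), from edgeR; points are estimates and bars are 1 standard error. Most points lie left of 0, and the bars of single beta genes are wide, while those of Pcdha and Pcdhg are narrow.

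Standard errors were wide for single beta genes and narrower for the merged rows. Pcdha had a log2 difference of -0.22 ± 0.23 (SE, adjusted p = 0.992) and Pcdhg one of -0.35 ± 0.33 (adjusted p = 0.984). Pcdhb6 had the smallest p of the beta genes below 0, with 5.50 and 3.02 CPM on TMM-scaled library sizes in the P35 and P36 males and 0.865 and 0.0488 CPM in the P40 and P42 females. The pools did not overlap, and the log2 difference was -3.21 ± 1.74 (adjusted p = 0.958). In the P36 males 1 cell alone, cell 4 at 63.1 CPM of its own total, held Pcdhb6 at 10 CPM or more, and the median was 0.111 CPM. Pcdhb17 stood at 16.2, 7.94, 5.87 and 2.89 CPM in the same order, with a log2 difference of -1.46 ± 0.84 (adjusted p = 0.975). Pcdhb4 stood at 1.34, 2.04, 0.368 and 0.0407 CPM, with a log2 difference of -3.04 ± 1.82 (adjusted p = 0.975); 1 male P36 cell alone held it at 10 CPM or more.

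On the other side of 0, Pcdhb18 stood at 0.751, 0.486, 4.18 and 0.155 CPM, with a log2 difference of 1.81 ± 1.82 (adjusted p = 0.986). Its level was high in the female P40 pool alone, where 2 cells held it at 10 CPM or more. Pcdhb14 had a log2 difference of 0.89 ± 1.85 (adjusted p = 0.998) and Pcdhb16 one of 0.38 ± 0.88 (adjusted p = 0.999). Pcdhb7 stood at 25.9, 3.81, 16.5 and 3.17 CPM, so that the 2 pools of each sex differed more from each other than the sexes did, with a log2 difference of -0.59 ± 1.05 (adjusted p = 0.996).

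Marker genes of other cell types were compared in the same fit. All 8 oligodendrocyte markers had estimates below 0 (median log2 difference -2.33), as had 8 of 9 markers of other interneurons (-1.44) and 5 of 7 of excitatory neurons (-1.53). All 7 microglial markers (1.07) and all 5 blood markers (2.80) had estimates above 0, while the PV, astrocyte and oligodendrocyte precursor lists had medians of 0.15, 0.40 and 0.13. No marker of these lists was called by edgeR's quasi-likelihood test or by limma, and all 5 blood markers had an unadjusted p under 0.05. DESeq2 called all 5 blood markers as higher in the female pools, and among the neuronal markers it called Sst, Vip, Slc17a6 and Slc17a7 as lower. The summed level of the oligodendrocyte markers was 1116 and 1461 CPM in the P35 and P36 males and 920 and 264 CPM in the P40 and P42 females, and that of the PV markers was 5824, 6035, 6559 and 6615 CPM. With the 8 cells that led each of the other marker lists left out, the log2 difference of the beta sum was -0.38 and no member was called. The part of these markers in the protocadherin values was not tested further. In the 40 cells with Pvalb above Sst and Gad1 above Slc17a7, the median number of beta isoforms per cell was 2, as in all cells. The log2 differences of the totals in these 40 cells were -0.30 for alpha, -0.75 for beta and -0.59 for gamma. For beta and gamma the exact two-sided permutation p was 0.333, the smallest that 2 pools against 2 allow.

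Most genes known to act on protocadherin promoters were read in most cells. Of the 16 regulators listed, 15 matched a gene symbol of the table. Ctcf, the insulator protein bound at these promoters, stood at 1.24, 27.4 and 112 CPM as lowest, median and highest, and reached 10 CPM in 47 cells. The cohesin subunits Smc1a and Smc3 had medians of 54.2 and 48.6 CPM. The methyltransferase Dnmt3a had a median of 23.8 CPM and reached 10 CPM in 42 cells, while Dnmt3b, which sets methylation at these promoters during development, had a median of 0 CPM and reached 10 CPM in 2 cells. None of the 15 was called between female and male pools by edgeR (0.0134% of all genes were), with 9 estimates above 0, 6 below (49.5% of all genes lay below) and a median log2 difference of 0.12. Of these, 1 gene, Dnmt3b, had an unadjusted p under 0.05 (5.51% of all genes had) and was called as lower by DESeq2, at pool levels of 1.53 and 7.11 CPM in males and 0.0303 and 0.146 CPM in females (log2 difference -5.61 ± 1.86, edgeR adjusted p = 0.878).

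Of 15 genes for signalling partners and proteases of protocadherins, 0 were called by edgeR's quasi-likelihood test, beside 0.0134% of all genes. Of the 15, 4 had an unadjusted p under 0.05, beside 5.51% of all genes, and 5 estimates lay above and 10 below 0, beside 49.5% of all genes below 0. Cyfip2, a subunit of the WAVE actin complex that binds protocadherin tails, had a median of 436 CPM, and its partner Nckap1 one of 187 CPM, both at 10 CPM or more in all 54 cells. Ptk2b, the kinase PYK2 that the constant domains of alpha and gamma proteins hold in check, stood at 141 and 110 CPM in the P35 and P36 males and at 37.2 and 32.3 CPM in the P40 and P42 females. These pools did not overlap, and the log2 difference was -1.85 ± 0.26 (SE, edgeR adjusted p = 0.204). DESeq2, which called no other gene of this list, gave an adjusted p of 1.26e-07, and over all alternatives it ran from 1.26e-07 to 1. Single cells ranged from 0.363 to 524 CPM around a median of 10.3 CPM.

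Of 12 non-clustered protocadherins, which are single genes outside the clusters, 11 were tested and 0 were called by edgeR's quasi-likelihood test, DESeq2 or limma, which called 0.0134%, 1.25% and 0.0134% of all genes. In the edgeR fit 4 estimates lay above 0 and 7 below, beside 49.5% of all genes below 0, with a median log2 difference of -0.40, and 1 gene had an unadjusted p under 0.05, beside 5.51% of all genes. That gene was Pcdh9, with a lowest, median and highest level of 2.42, 166 and 568 CPM, and 10 CPM or more in 53 of 54 cells. Its pools stood at 149 and 148 CPM in males and 212 and 198 CPM in females, without overlap, and the log2 difference was 0.46 ± 0.18 (adjusted p = 0.899). Pcdh17 had a median of 54.5 CPM and a log2 difference of -0.48 ± 0.25 (adjusted p = 0.956). Use differed widely within this list: Pcdh7, Pcdh9 and Pcdh17 reached 10 CPM in 46, 53 and 47 of the 54 cells, while Pcdh11x did in 8, Pcdh15 and Pcdh20 in 7 each, Pcdh18 in 2 and Pcdh12 in 0, as few cells as single beta genes.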

How the data were processed

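The values were whole-number read counts per gene, deposited by the authors without normalization. The submitters' processing notes name STAR, GRCm38 and edgeR. Their versions, the annotation, the counting tool, its strand setting and its handling of reads that match several genes were not given in the sources used here. All columns matched a labelled cell. No molecular identifiers are named, so counts are reads and intervals cover counting error only.

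CPM used each cell's total. Counts of Pass cells were summed by sex and age into 4 pools and tested with edgeR 4.0.16 (TMM, glmQLFit and glmQLFTest) over the 14933 genes that passed filterByExpr and were read in 10 or more Pass cells. The p-values measure the spread between these pools. Benjamini-Hochberg adjustment covered all genes, with a threshold of 0.05. Single values were compared by an exact permutation test over pools. DESeq2 1.42.0, limma 3.58.1 on mean log2(CPM + 1), other thresholds, cells thinned to 2054581 counts and left-out pools were alternatives. The fit was tested on simulated data.

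Members and lists were chosen with earlier results of these data known. Beta genes named singly were the 3 found in the most cells, the 1 in the fewest, the 1 with the highest value in a cell, and the 3 smallest p in each direction. Genes named beyond that rule, including Pcdhb9, Pcdhb20 and those with no cell at 10 CPM, were chosen after their values were seen. The planned share of cells with each C-type isoform could not be given, since alpha and gamma are 1 row each.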

Additional observations from a re-analysis of the deposited data

Results flagged for a closer look

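In the female P42 pool (10 cells) and the 4 cells labelled Fail, 1 cell often stood alone in a beta gene: the gap to the nearest cell, over the whole range, exceeded the 95% critical value of Dixon's test. Groups of 4 to 10 cells alone were looked at, so the 3 larger pools were not, although single high cells occur in them too. Of 35 groups and measures, 18 were picked out in this way. Chance picks about 1 in 20 where values follow a normal distribution, which beta genes at or near 0 in most cells do not, so the number of such cells supports nothing. In the female P42 pool the single high levels were 13.9 CPM of Pcdhb2 in cell 2, 42.7 CPM of Pcdhb3 in cell 6, 16.9 CPM of Pcdhb5 in cell 8, 51.9 CPM of Pcdhb7 in cell 1 and 28.8 CPM of Pcdhb10 in cell 10. Cell 4 stood alone in 3 genes, at 76.1 CPM of Pcdhb11, 6.77 CPM of Pcdhb13 and 40.8 CPM of Pcdhb17. The others were 20.8 CPM of Pcdhb12 in cell 6, 1.89 CPM of Pcdhb15 in cell 3, 64.8 CPM of Pcdhb19 in cell 8, 20.4 CPM of Pcdhb21 in cell 5 and 6.37 CPM of Pcdhb22 in cell 2. Over the 54 Pass cells, these 13 genes reached 10 CPM in 0 to 13 cells each.

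The Fail cells, which entered no comparison, held 545497 to 5078485 counts. Fail cell 4 stood alone at 10.4 CPM of Pcdhb3 and 7.88 CPM of Pcdhb4, cell 2 at 8.38 CPM of Pcdhb5 and 13.4 CPM of Pcdhb16, and cell 1 at 38.3 CPM of Pcdhb17. Clustered protocadherins were read in all 4: the lowest totals were 55.1 CPM of Pcdha, 10.999 CPM of summed beta and 97.5 CPM of Pcdhg, each above the 5.50 CPM that 3 counts give in the shallowest of them. They held 3, 3, 0 and 2 beta isoforms at 10 CPM or more.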

How the results depend on the processing

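No member was called between female and male pools under any alternative run. The number of all genes called was 2 by edgeR, 111 with no filter on low counts, 179 by DESeq2, 0 without the 8 cells that led the other marker lists, and 0 to 21 when 1 pool was left out. The median number of beta isoforms per cell was 4.5 at 1 CPM, 3 at 5 CPM, 0 at 50 CPM and 4 at 10 or more counts, and the mean was 4.70 at 1 CPM, 0.537 at 50 CPM and 4.69 at 10 or more counts. The mean ran from 2.03 to 2.59 when 1 pool was left out. The mean number shared per pair of cells was 1.35 at 1 CPM, 0.0196 at 50 CPM and 0.241 to 0.437 with 1 pool left out.

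With 1 pool left out, the log2 differences of the totals ran from -0.49 to 0.0396 for alpha, -1.12 to -0.017 for beta and -0.96 to 0.11 for gamma, and the median of the beta genes from -1.25 to 0.13. Differences that changed sign among named genes ran from -0.59 to 1.03 for Pcdhb16, -2.22 to 1.37 for Pcdhb7, -4.07 to 2.70 for Pcdhb12, -1.99 to 2.77 for Pcdhb18, -4.28 to 2.68 for Pcdhb14, -0.50 to 0.034 for Pcdha, -0.98 to 0.10 for Pcdhg, -0.61 to 0.40 for Smc1a, -0.0297 to 0.26 for Smc3 and -0.50 to 0.0904 for Cyfip2. On mean log2(CPM + 1) the sign also changed for Pcdhb14 (-0.13), Smc1a (0.28) and Smc3 (-0.054), and after thinning for Smc1a (0.11). The cause was not tested. Ptk2b had an edgeR adjusted p of 5.1e-07 with no filter on low counts, and Dnmt3b a DESeq2 adjusted p of 0.0255 (0.0255 to 1 over its alternatives).

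Without female P40 cell 3, an alternative chosen after seeing the data, the log2 differences were -0.29 for alpha, -0.54 for beta and -0.27 for gamma. With 1 pool left out, the lone pool of that sex is assumed to vary like the others. No paired analysis was possible because the labels give male and female cells no shared replicate numbers. Alternatives for the C-type share of cells were not run, since alpha and gamma are 1 row each. Pools of 2 against 2 cannot give an exact p under 0.333, and the depth of 2054581 counts in the shallowest Pass cell limits what can be said of levels under 1 CPM.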
